A study of Mus musculus with 15 samples.

Results

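Pegylated mesoporous silica of 500 nm (MSN-PEG500) was compared with nonporous Stober silica of 50 nm (Stober50) in RAW264.7, a line of mouse macrophages that Abelson murine leukemia virus had transformed. The comparison rests on 6 of the 15 RNA sequencing libraries of the study, 3 for each particle, chosen by the treatment named in their labels. The other 9 libraries are untreated control cells, 500 nm Stober silica (Stober500) and uncoated 500 nm mesoporous silica (MSN500), with 3 libraries each. The dosage labels speak of 0.5 of an LC50 dose, with 13.1 µg/ml for Stober50, 16.8 µg/ml for Stober500, 111.8 µg/ml for MSN500 and 84 µg/ml for MSN-PEG500. Their wording does not settle whether the number is the concentration given or the LC50. Particle size, porosity, the polyethylene glycol coat and the dosage all differ between MSN-PEG500 and Stober50, and their parts in any difference cannot be told apart. All cells were at passages 6 to 14 and grew with serum. The protocols give the exposure once as 24 h and once as 4 h.

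Macrophages take up silica particles by phagocytosis and endocytosis, and the particles collect in lysosomes. A lysosome is acidified by the vacuolar proton pump (V-ATPase), and its hydrolases and pump genes are under the MiT/TFE transcription factors, which move to the nucleus when lysosomes are stressed. Cholesterol from endocytosed lipoprotein leaves the cell's lysosomes for the endoplasmic reticulum (ER), where low sterol releases SREBP2, the factor that switches on cholesterol synthesis and uptake. Silica-exposed macrophages are also known for cytokine release and for type I interferon responses.

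The cells carried their label. All 12 macrophage markers listed, among them Csf1r, Cd68, Lyz2 and Itgam, were measured, with a summed level of 19508 to 19721 CPM (counts scaled to a common, TMM-adjusted library total) in the Stober50 libraries and 17415 to 18641 CPM in MSN-PEG500. Of markers of other cell types, 1 of 7 fibroblast, 2 of 10 lymphocyte, 0 of 6 epithelial, 1 of 8 erythroid and granulocyte and 1 of 8 dendritic and mast cell genes reached the test. The summed lymphocyte level was at most 15.1 CPM in Stober50 and 13.2 CPM in MSN-PEG500, and no other of these lists summed to above 4.84 CPM in either group. Library totals were 24756303 to 27253289 counts for Stober50 and 17683003 to 22554806 counts for MSN-PEG500. On the first principal component of log2 CPM, with 49.6% of the variance, the mesoporous libraries lay at 19.3 to 27 and all others at −19.2 to −10.2. The second component, with 7.5%, set MSN-PEG500 replicate 3 at 19.1 apart from the other MSN-PEG500 libraries at 4.8 and 3.5. Nothing in the labels states that replicates were separate cultures, and the p-values measure a spread between libraries that may be technical.

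The promoters shown here belong to members of the cholesterol, lysosomal and interferon lists, whose values follow further on, and show the elements by which the factors just named are known to act. They were picked among members that passed the test given below and held the motif. A match in each was thus fixed beforehand and says nothing about the list. They are shown as examples. Each is the 250 bases before the RefSeq transcription start in GRCm38.p6, written 5′ to 3′ on the gene's strand, with matches to a short motif in capitals. Hmgcs1 (chr13:119690101-119690350, plus strand) encodes the cytosolic HMG-CoA synthase of the mevalonate pathway, and its capitals mark the sterol regulatory element TCACCCCAC.
Hmgcs1: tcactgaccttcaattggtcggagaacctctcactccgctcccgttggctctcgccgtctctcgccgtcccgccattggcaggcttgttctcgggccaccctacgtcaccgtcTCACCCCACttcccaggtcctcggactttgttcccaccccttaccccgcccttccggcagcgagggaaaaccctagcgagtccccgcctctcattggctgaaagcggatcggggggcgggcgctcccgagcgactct
Gla (chrX:134601006-134601255, minus strand) encodes lysosomal alpha-galactosidase and Ctsd (chr7:142387828-142388077, minus strand) the protease cathepsin D. Their capitals mark TCACGTGA, the core of the CLEAR element that MiT/TFE factors bind.
Gla: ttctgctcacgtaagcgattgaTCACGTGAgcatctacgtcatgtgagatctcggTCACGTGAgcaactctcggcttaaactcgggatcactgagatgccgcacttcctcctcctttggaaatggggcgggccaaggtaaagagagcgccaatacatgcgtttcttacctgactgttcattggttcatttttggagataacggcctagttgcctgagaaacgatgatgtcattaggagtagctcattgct
Ctsd: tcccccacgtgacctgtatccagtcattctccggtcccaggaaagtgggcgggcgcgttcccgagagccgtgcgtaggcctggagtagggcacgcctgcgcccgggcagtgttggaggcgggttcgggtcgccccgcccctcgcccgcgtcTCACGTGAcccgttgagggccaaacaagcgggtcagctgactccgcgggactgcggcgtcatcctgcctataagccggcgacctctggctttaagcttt
Ifit1 (chr19:34640639-34640888, plus strand) and Isg15 (chr4:156200819-156201068, minus strand) encode an antiviral RNA-binding protein and a ubiquitin-like modifier, both induced by interferon. Their capitals mark the core of the interferon-stimulated response element, GAAA followed by any 2 bases and GAAA, on either strand. Neighbours among the 3 matches of Isg15 overlap.
Ifit1: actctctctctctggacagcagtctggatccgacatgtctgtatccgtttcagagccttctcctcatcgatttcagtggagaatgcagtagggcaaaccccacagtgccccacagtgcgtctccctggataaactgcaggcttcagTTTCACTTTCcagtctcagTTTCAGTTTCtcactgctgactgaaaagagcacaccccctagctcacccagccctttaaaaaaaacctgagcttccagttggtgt
Isg15: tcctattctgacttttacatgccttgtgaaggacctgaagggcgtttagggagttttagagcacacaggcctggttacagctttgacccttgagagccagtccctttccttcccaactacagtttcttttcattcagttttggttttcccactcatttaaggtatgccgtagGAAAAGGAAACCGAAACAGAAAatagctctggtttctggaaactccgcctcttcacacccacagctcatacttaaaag
The motifs were sought on both strands in the promoters of the 8970 tested genes that had a RefSeq start. The sterol element stood in 1 of 19 promoters of cholesterol genes (5.26%) and in 0.702% of all promoters, 128 bases before the start of Hmgcs1. The CLEAR core stood in 5 of 37 promoters of lysosomal genes (13.5%), in 1 of 13 of the proton pump (7.69%) and in 1.84% of all. The interferon element stood in 14 of 29 promoters of interferon response genes (48.3%) and in 3.28% of all. A match is a stretch of letters and was not tested as a binding site.

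Between the particles 4232 of 12798 genes tested passed a threshold of 0.05 on the p from edgeR's quasi-likelihood F-test, adjusted by Benjamini-Hochberg over all of them, which is 33.1%. All 15 libraries entered the fit. Of all genes tested, 17.4% were higher in MSN-PEG500 (2229 genes) and 15.7% were lower (2003 genes), and these shares are the background for every list below. Higher genes were 52.7% of those called, 43.4% with upper quartile scaling and 44.1% with the trend on transcript length removed. Most changes were small, with a median absolute log2 change of 0.26 among called genes and 5th and 95th percentiles of −0.45 and 0.53 over all genes. Only 255 genes (1.99%) changed by at least 2-fold, 173 higher (1.35%) and 82 lower (0.641%). Without MSN-PEG500 replicate 3, the library that stood apart, 3300 genes were called, and without Stober50 replicate 2, the lowest of all omissions, 3236.

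**Figure D1:**
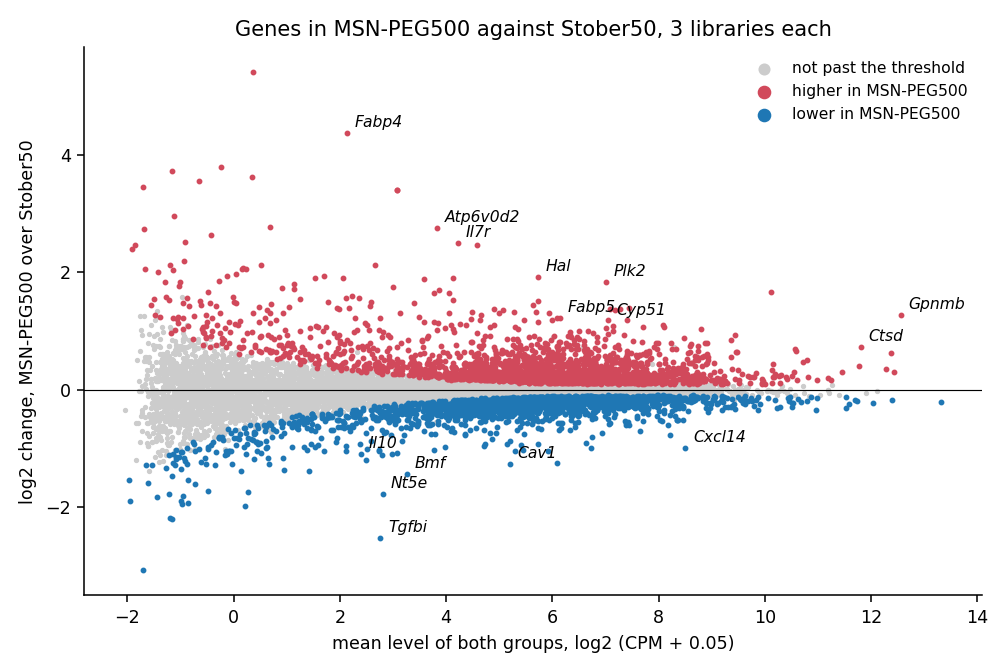
Each point is a gene, with its mean level over both groups on the horizontal axis as log2 (CPM + 0.05) and its log2 change in MSN-PEG500 over Stober50 on the vertical axis; 3 libraries a group. Red points were higher in MSN-PEG500 (2229 genes), blue points lower (2003 genes), and Fabp4 at 4.37 and Tgfbi at −2.53 lie near the edges.

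Among called genes with a mean of at least 5 CPM in the higher group and no overlap of libraries, the large rises in MSN-PEG500 included those of a fatty acid carrier, a subunit of the proton pump and a cytokine receptor. Fabp4, the fatty acid binding protein of adipocytes and of lipid-laden macrophages (chr3:10204347-10208576, GRCm38), stood at 0.481, 0.273 and 0.437 CPM in the Stober50 libraries and at 8.87, 7.16 and 8.77 CPM in MSN-PEG500. Every MSN-PEG500 library was far above every Stober50 library, and the log2 change was 4.37 ± 0.19 (SE; edgeR adjusted p = 2.79e-15). The control mean of Fabp4 was 0.501 CPM, near that of Stober50.
Atp6v0d2, a proton pump subunit of macrophages and osteoclasts (chr4:19876841-19922605), was at 3.73, 3.39 and 3.79 CPM in Stober50 and at 24.9, 19.6 and 29.3 CPM in MSN-PEG500, a log2 change of 2.76 ± 0.12 (adjusted p = 3.78e-15). Il7r, a subunit of the interleukin-7 receptor, was at 5.73, 4.79 and 6.15 CPM against 28.2, 27.7 and 39.0 CPM, a log2 change of 2.50 ± 0.16 (adjusted p = 7.36e-09). Hal, the enzyme that begins histidine breakdown (chr10:93488768-93519304), was at 21.7, 19.3 and 25.4 CPM against 87.7, 74.2 and 90.4 CPM, a log2 change of 1.92 ± 0.09 (adjusted p = 4.05e-12). The groups of these 3 genes did not overlap, as was so for 22.5% of all genes in the higher and 22% in the lower direction, a background that holds wherever groups are said below not to overlap.
Fam46c, a noncanonical poly(A) polymerase, rose by a log2 change of 2.46 ± 0.11, the orphan receptor Gpr176 by 1.94 ± 0.19 and the poorly characterised 4933430I17Rik by 2.12 ± 0.12. Akap2 and Pakap, annotations of the same reads, both gave 3.40 ± 0.17. Hvcn1, a proton channel, gave 1.90 ± 0.15 and C77080 1.91 ± 0.09, but each overlaps a more abundant gene on the opposite strand (Tctn1 at 1.51 times and Yars at 11.1 times its level), and reads of such a pair cannot be told apart without strand. Mmp12, macrophage elastase, was at 5.09, 5.18 and 4.95 CPM in Stober50 and at 14.7, 12.6 and 28.7 CPM in MSN-PEG500. Replicate 3 was the highest, and the log2 change was 1.88 ± 0.34 (adjusted p = 0.00139).

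In several of these genes Stober50 itself stood above the control, by less than MSN-PEG500. Hal had a control mean of 9.0 CPM, and its log2 change over control was 1.30 in Stober50 (adjusted p = 1.43e-06) and 3.23 in MSN-PEG500 (adjusted p = 1.27e-14). Atp6v0d2 changed over control by 0.85 in Stober50 and 3.61 in MSN-PEG500, Fam46c by 0.70 and 3.15, Il7r by 0.93 and 3.44, and all 6 of these changes passed the test. Fabp4 at −0.33 (adjusted p = 0.638) and Gpr176 at 0.56 (adjusted p = 0.223) did not pass it in Stober50. Both changes of a gene share the control libraries.

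Under the same limits of level and overlap, the deepest falls in MSN-PEG500 were those of Tgfbi, Nt5e, Bmf and Cav1, which act in the matrix, in apoptosis and at the cell surface. Tgfbi, a secreted adhesion protein induced by TGF-beta (chr13:56609603-56639339), was at 12.3, 10.8 and 11.3 CPM in Stober50 and at 2.53, 1.67 and 1.62 CPM in MSN-PEG500, a log2 change of −2.53 ± 0.13 (adjusted p = 4.6e-14). Nt5e, which encodes CD73 and turns AMP into adenosine, was at 10.9, 9.47 and 12 CPM against 3.71, 2.77 and 2.87 CPM, a log2 change of −1.78 ± 0.13 (adjusted p = 4.68e-11). Cav1, the coat protein of caveolae, was at 52.6, 49.0 and 53.4 CPM against 21.5, 21.6 and 21 CPM, a log2 change of −1.27 ± 0.09 (adjusted p = 1.82e-09). All MSN-PEG500 libraries were below all Stober50 libraries for these genes. Their control means were 11.6, 10.9 and 53.7 CPM, and the changes of Stober50 against control (adjusted p = 0.93, 0.958 and 0.75) did not pass the test.
Bmf, a BH3-only protein that promotes apoptosis (chr2:118528757-118549687), was at 15.8, 12.9 and 13.4 CPM in Stober50 and at 5.43, 4.97 and 5.12 CPM in MSN-PEG500, a log2 change of −1.43 ± 0.15 (adjusted p = 3.76e-07). Its control mean was 21.4 CPM, so Stober50 lay between control and MSN-PEG500, with a log2 change of −0.61 against control (adjusted p = 0.00312). Other falls were those of Olfml3, a secreted glycoprotein, at −1.25 ± 0.06, of the surface receptor Cd101 at −1.20 ± 0.13, of the serine incorporator family member Serinc2 at −1.10 ± 0.13 and of Id1, an inhibitor of helix-loop-helix factors, at −1.05 ± 0.08.

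**Figure D2:**
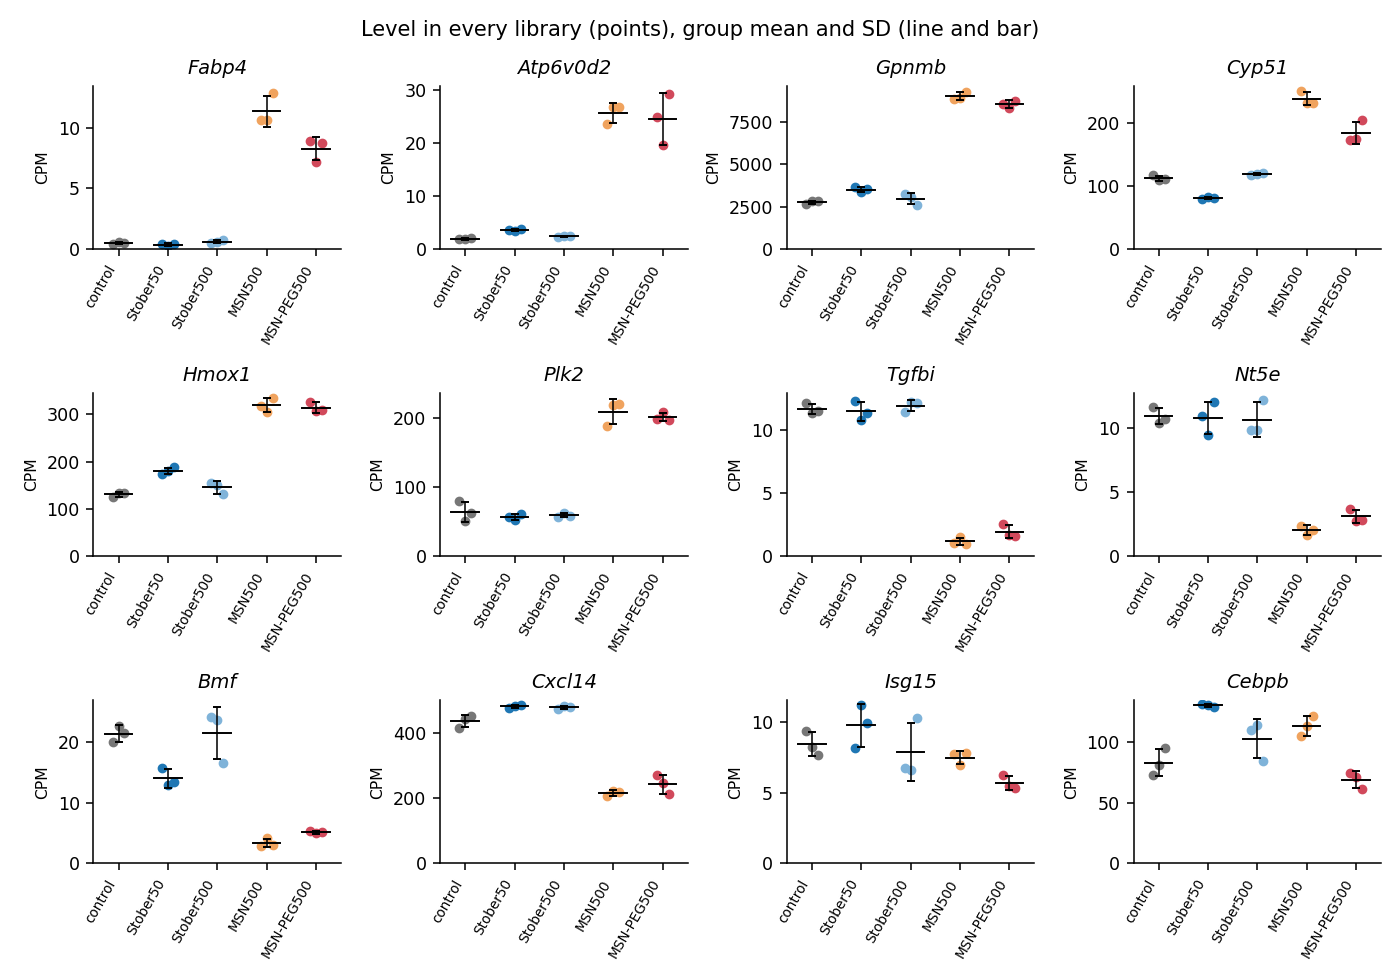
Level in CPM of 12 genes in each of the 15 libraries (points), with the group mean (line) and SD (bar); each panel has its own axis from 0. Fabp4, Atp6v0d2, Gpnmb and Plk2 separate the mesoporous from the other groups, Cyp51 is lowest in Stober50, and Tgfbi, Nt5e, Bmf and Cxcl14 are low in the mesoporous groups.

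Genes of cholesterol synthesis and uptake were higher in MSN-PEG500, and Stober50 was the group below the control. Of 26 measured members 22 rose, 1 fell and 3 did not pass the test, with a median log2 change of 0.68 beside −0.006 over all genes. Cyp51, the lanosterol demethylase (chr5:4081145-4104746), was at 79.3, 82.8 and 81.9 CPM in Stober50 and at 173, 175 and 204 CPM in MSN-PEG500, a log2 change of 1.18 ± 0.05 (adjusted p = 2.79e-15). Its means were 113 CPM in the control, 119 in Stober500 and 238 in MSN500. Stober50 was thus the lowest of the 5 groups, with a log2 change of −0.47 against control (adjusted p = 1.32e-06), while MSN-PEG500 was 0.70 above it (adjusted p = 1.31e-11).
Early steps followed the same order. Hmgcs1, whose promoter is printed above, was at 84.1, 80.1 and 88.1 CPM in Stober50 and at 160, 159 and 205 CPM in MSN-PEG500, around a control mean of 115 CPM, a log2 change of 1.05 ± 0.07 (adjusted p = 6.17e-09). The mevalonate enzymes rose by log2 changes of 0.44 (Mvk), 0.31 (Pmvk), 0.87 (Mvd), 0.67 (Idi1) and 1.00 (Fdps), and Mvd overlaps another annotation.
In the squalene and sterol steps the rises were 0.83 for Sqle, which oxidises squalene, 0.91 for Lss, 0.93 for Msmo1, 0.73 for Nsdhl, 0.91 for Hsd17b7, 1.06 for Sc5d and 0.60 for Dhcr7. Fdft1 gave 0.86 but overlaps Ctsb, at 119 times its level on the opposite strand, and is uncertain. Ebp at 0.03 (adjusted p = 0.684) and Tm7sf2 at 0.04 did not pass the test.
Of the regulators, Insig1, which holds SREBP in the ER and is itself a target of it, rose by 0.89 and Srebf2, which encodes SREBP2, by 0.28. Insig2 at 0.16 (adjusted p = 0.0778) did not pass the test, and Scap, the escort of SREBP, fell by 0.18 (adjusted p = 0.00298).
Against control, 18 of the 26 members rose and 0 fell in MSN-PEG500 (median 0.41; 17.5% of all genes rose), and 0 rose and 20 fell in Stober50 (median −0.32; 3.72% of all genes fell). By library, the mean log2 level of the list relative to control was −0.30, −0.26 and −0.24 in Stober50 and 0.36, 0.34 and 0.41 in MSN-PEG500. MSN500 stood higher still, at a mean of 0.65, and Stober500 at 0.02. MSN-PEG500 was below MSN500 for 21 members and above it for 0 (3.92% of all genes were lower and 4.1% higher there), and 19 members were higher in Stober500 than in Stober50 while 0 were lower (0.828% of all genes were higher and 1.41% lower there).

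**Figure D3:**
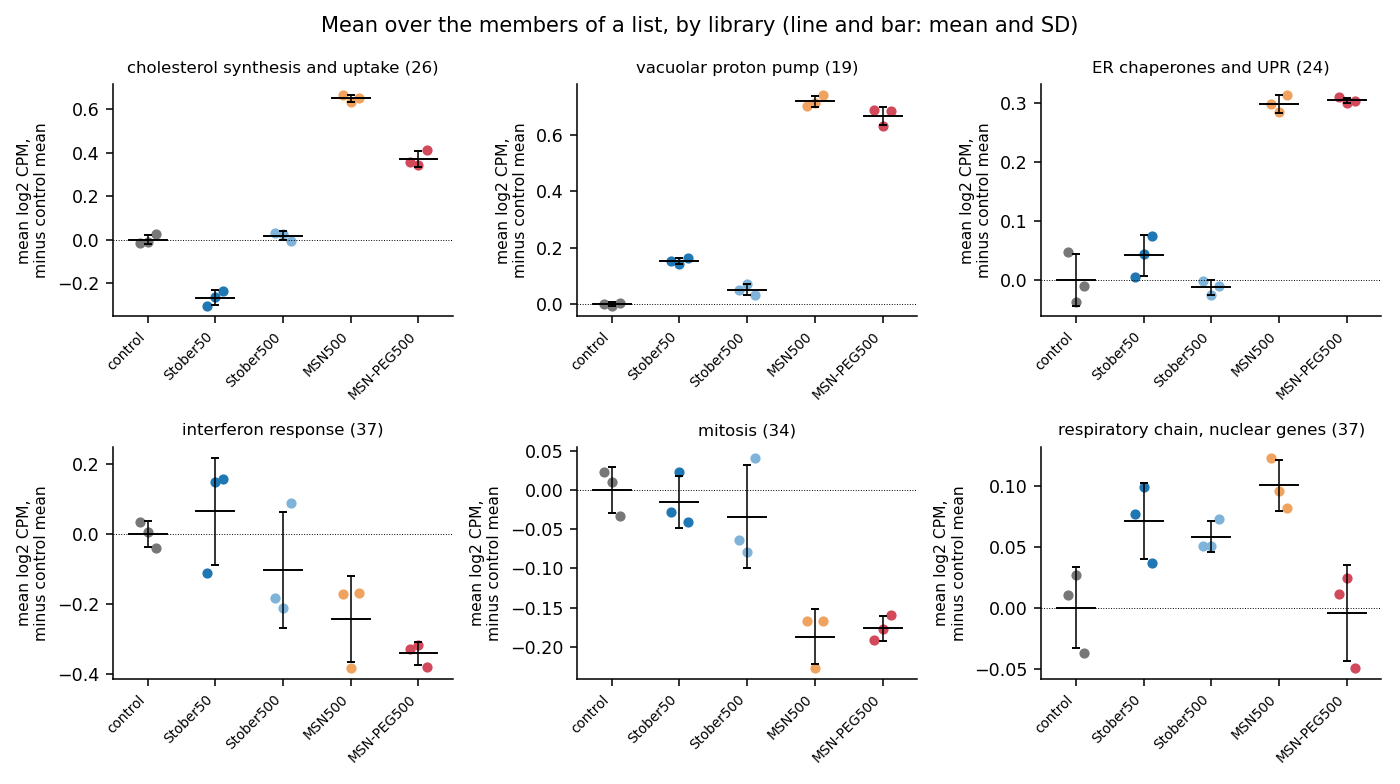
Mean log2 CPM over the members of 6 gene lists, minus the control mean, in each library (points) with the group mean (line) and SD (bar); the number of members stands in each title and UPR is the unfolded protein response. For cholesterol the Stober50 libraries lie at −0.30 to −0.24 and the MSN-PEG500 libraries at 0.34 to 0.41; for interferon Stober50 replicate 1 at −0.11 lies apart from 0.15 and 0.16.

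Fatty acid synthesis, the other SREBP-driven pathway, showed smaller changes of the same kind. Of 16 members 13 rose, 0 fell and 3 did not pass the test, with a median log2 change of 0.30. Fasn, fatty acid synthase, was at 278, 303 and 317 CPM in Stober50 and at 392, 407 and 379 CPM in MSN-PEG500, a log2 change of 0.39 ± 0.05 (adjusted p = 1.21e-06). The groups did not overlap, and the control mean of 356 CPM lay between them. Acsl3 and Acsl4, which activate fatty acids, rose by 0.43 and 0.28, Elovl5, an elongase, by 0.33, and Acly, which supplies cytosolic acetyl-CoA, by 0.31. The desaturases Scd1 and Scd2 rose by 0.53 and 0.45, the call of Scd1 being lost without Stober50 replicate 1 or 3 or MSN-PEG500 replicate 2 or 3 (adjusted p = 0.0736 to 0.101). Fads1 at 0.04 (adjusted p = 0.444), Elovl1 at 0.02 (adjusted p = 0.797) and the regulator Srebf1 at 0.09 (adjusted p = 0.453) did not pass the test. Against control 9 members rose in MSN-PEG500 and 5 fell in Stober50.

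Lipid storage and PPAR target genes split. Of 17 members 8 rose and 6 fell. Fabp5, the epidermal fatty acid binding protein, was at 40.1, 42.8 and 44.0 CPM in Stober50 and at 96.2, 101 and 99.4 CPM in MSN-PEG500, a log2 change of 1.22 ± 0.05 (adjusted p = 6.74e-16). Its control mean of 42.9 CPM lay among the Stober50 libraries. The lipid droplet proteins Plin2, Plin3 and Hilpda rose by 0.59, 0.42 and 0.72, and Soat1, which esterifies cholesterol, by 0.55. The 6 members that fell were the lipases Lipe at −0.37 and Pnpla2 at −0.25, the mitochondrial fatty acid enzymes Cpt1a at −0.27 and Acadvl at −0.33, Angptl4, an inhibitor of lipoprotein lipase, at −0.46 and the fatty acid transporter Cd36 at −0.25, a call lost without MSN-PEG500 replicate 2 (adjusted p = 0.0755). Pparg at 0.39 (adjusted p = 0.052) did not pass the test, but did without MSN-PEG500 replicate 3 and with the length trend removed (0.0414 to 0.0496).
Targets of LXR, the oxysterol receptor that promotes cholesterol efflux, were in part higher in Stober50. Of 14 members 2 rose and 5 fell in MSN-PEG500, with a median log2 change of −0.19. Abcg1, a sterol exporter, was at 76.5, 78.5 and 68.0 CPM in Stober50 and at 51.2, 55.8 and 53.6 CPM in MSN-PEG500, a log2 change of −0.48 ± 0.08 (adjusted p = 0.000159). The control mean of Abcg1 was 51.0 CPM, and Stober50 lay 0.54 above it on the log2 scale (adjusted p = 0.000365). Mylip, a ubiquitin ligase, fell by 0.63 and Arl4c, a small GTPase, by 0.57, and Smpdl3a fell by 0.20. Lpl, lipoprotein lipase, also fell by 0.20, a call lost without Stober50 replicate 2 (adjusted p = 0.0531). The exporter Abca1 rose by 0.23 and Nr1h3, which encodes LXR alpha, by 0.19. The call of Abca1 was lost without Stober50 replicate 1 or 2, without MSN-PEG500 replicate 3 and with the length trend removed (adjusted p = 0.0734 to 0.179). That of Nr1h3 was lost with DESeq2 and without Stober50 replicate 3 or MSN-PEG500 replicate 1 (0.0503 to 0.0595).

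The V-ATPase was higher in MSN-PEG500 in nearly all its subunits. Of 19 members 17 rose, 1 fell and 1 did not pass the test, with a median log2 change of 0.37. In the V1 sector, which hydrolyses ATP in the cytosol, Atp6v1d was at 53.9, 55.8 and 57.0 CPM in Stober50 and at 103, 106 and 110 CPM in MSN-PEG500, a log2 change of 0.93 ± 0.04 (adjusted p = 3.78e-15). Atp6v1a, a catalytic subunit, was at 489, 461 and 466 CPM against 839, 792 and 928 CPM, a log2 change of 0.85 ± 0.04 (adjusted p = 4.58e-14). Neither pair of groups overlapped. The other V1 rises were 0.80 for Atp6v1c1, 0.55 for Atp6v1h, 0.46 for Atp6v1g1, 0.26 for Atp6v1b2, 0.19 for Atp6v1e1 and 0.16 for Atp6v1f. In the V0 sector, the proton channel in the membrane, Atp6v0d2 was described above, Atp6v0a1 rose by 0.89, Atp6v0d1 by 0.59, Tcirg1 by 0.50 and Atp6v0c by 0.37. Atp6v0a2 at 0.06 (adjusted p = 0.305) did not pass the test and Atp6v0e2 fell by 0.13 (adjusted p = 0.0326). The calls of Atp6v1f and Atp6v0e2 were each lost in 6 alternatives, Atp6v1f without Stober50 replicate 1 or 3 or MSN-PEG500 replicate 1 or 2 among them (adjusted p = 0.0504 to 0.135), and Atp6v0e2 without Stober50 replicate 1 or 2 or MSN-PEG500 replicate 3 (0.0525 to 0.215). Against control 16 members rose in MSN-PEG500 (median 0.44), and 10 rose in Stober50 (median 0.16; 3.85% of all genes rose there).

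Lysosomal hydrolases and membrane proteins rose in 32 of 48 members, fell in 5 and did not pass the test in 11, with a median log2 change of 0.23. Ctsk, cathepsin K, the collagen-degrading protease of osteoclasts, was at 9.14, 9.16 and 10.5 CPM in Stober50 and at 23.6, 22.1 and 25.2 CPM in MSN-PEG500, a log2 change of 1.30 ± 0.08 (adjusted p = 1.18e-12). Gla was at 75.8, 71.0 and 75.3 CPM against 143, 134 and 153 CPM, a log2 change of 0.96 ± 0.05 (adjusted p = 3.62e-14). Ctsd was at 2790, 2636 and 2675 CPM against 4527, 4409 and 4508 CPM, a log2 change of 0.73 ± 0.04 (adjusted p = 4.01e-14). The groups of these 3 genes lay wholly apart, and Stober50 was above the control means of 7.37, 58.6 and 2297 CPM for each (adjusted p = 0.0125, 0.000123 and 0.000246). Ctsb, cathepsin B, rose by 0.62. The 5 members that fell, named after their values were seen, were Ctsc at −0.52, Ctsh at −0.44, Gm2a at −0.27, Ids at −0.16 and Man2b1 at −0.13. The call was lost for Gm2a without MSN-PEG500 replicate 3 (adjusted p = 0.089), for Ids without Stober50 replicate 1 or 2 or MSN-PEG500 replicate 1 or 2 (0.0505 to 0.113), and for Man2b1 without Stober50 replicate 1 or MSN-PEG500 replicate 1 or 3 (0.0548 to 0.104). Ctsc encodes cathepsin C, which activates granule proteases. Against control 37 members rose and 5 fell in MSN-PEG500, and 16 rose and 0 fell in Stober50.

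Of the MiT/TFE factors and the lysosomal nutrient-sensing genes 10 of 18 rose, 1 fell and 7 did not pass the test. Gpnmb, a lysosomal glycoprotein and MITF target (chr6:49036518-49058182), was at 3669, 3356 and 3539 CPM in Stober50 and at 8585, 8339 and 8765 CPM in MSN-PEG500, a log2 change of 1.28 ± 0.06 (adjusted p = 8.51e-15). Its control mean was 2781 CPM, 0.34 below Stober50 on the log2 scale (adjusted p = 0.000296). Rragd, a Rag GTPase that signals amino acid supply to mTORC1, was near the limit of 3 counts in Stober50, at 0.16, 0.117 and 0.255 CPM, and reached 1.81, 1.96 and 3.08 CPM in MSN-PEG500, a log2 change of 3.62 ± 0.31 (adjusted p = 5.17e-10). Fnip2 and Fnip1, partners of folliculin, rose by 1.19 and 0.74, Rragc by 0.60, Lamtor3 by 0.52 and Flcn, folliculin itself, by 0.27. Of the factors, Tfeb was at 0.19 (adjusted p = 0.0396), a call lost in 7 alternatives, among them DESeq2, upper quartile scaling and the omission of Stober50 replicate 1 or 3 or MSN-PEG500 replicate 1 or 2 (0.0533 to 0.192). Mitf at 0.07, Tfe3 at −0.03 and Tfec at 0.07 did not pass the test, though Tfe3 did with the length trend removed (adjusted p = 0.0277). Sqstm1, the autophagy receptor p62, was at 532, 535 and 542 CPM in Stober50 and at 816, 786 and 759 CPM in MSN-PEG500, with a control mean of 400 CPM and a log2 change of 0.55 ± 0.04 (adjusted p = 4.4e-12).

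**Figure D4:**
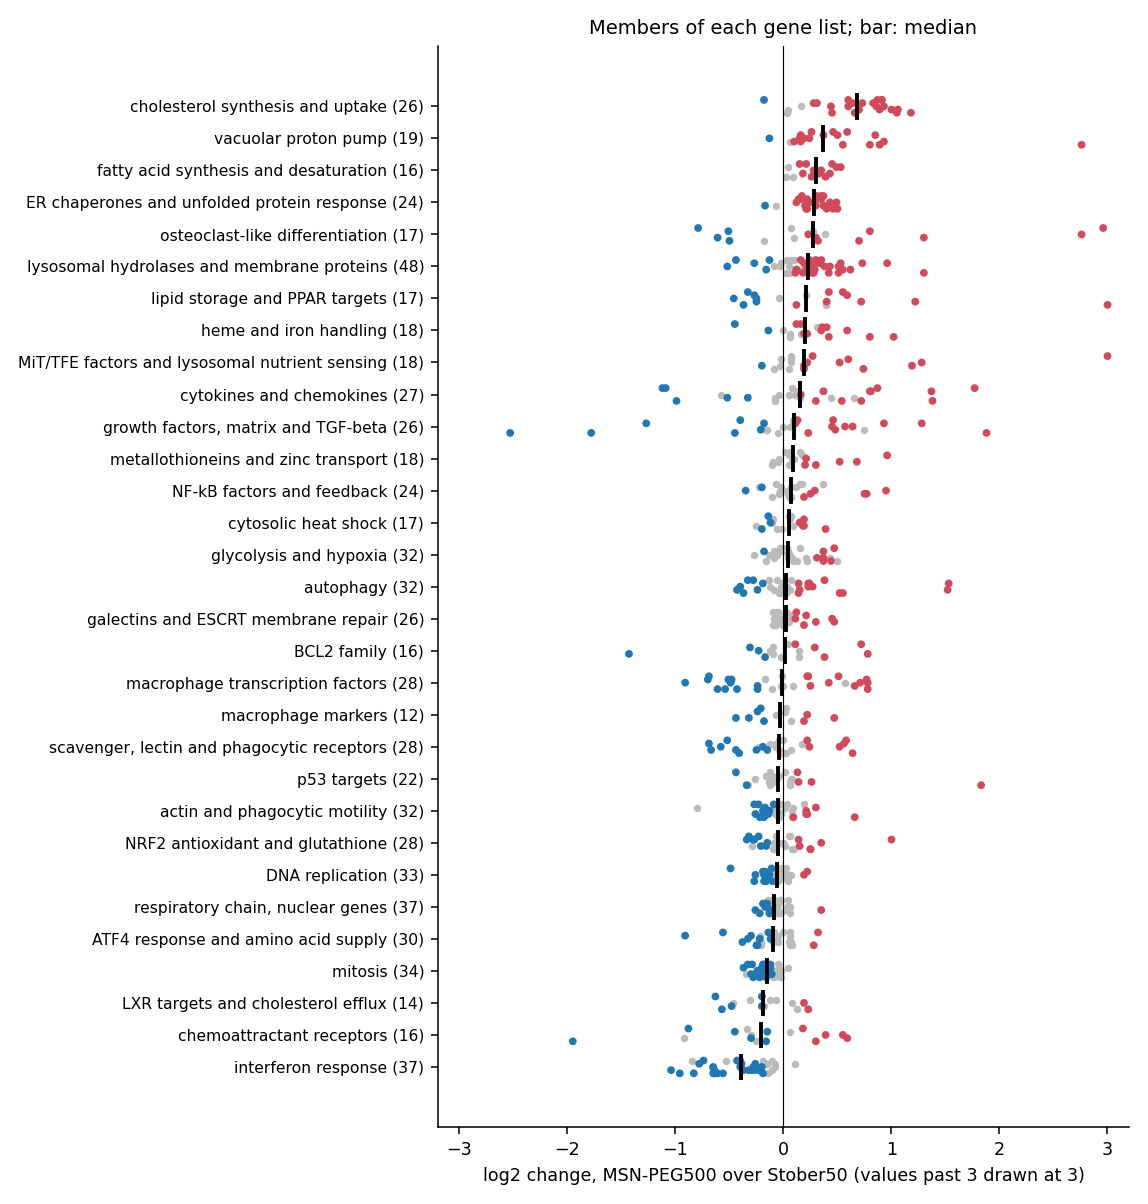
Log2 change in MSN-PEG500 over Stober50 of each tested member (points) of 31 gene lists, ordered by median (bar), with the number of tested members in brackets; red and blue points passed the test, grey points did not, and values past 3 are drawn at 3. The cholesterol list has the highest median, 0.68, and the interferon list the lowest, −0.39.

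Genes of heme and iron handling rose in 11 of 18 members and fell in 2. Hmox1, heme oxygenase (chr8:75093591-75100596), was at 175, 180 and 188 CPM in Stober50 and at 327, 307 and 309 CPM in MSN-PEG500, a log2 change of 0.80 ± 0.05 (adjusted p = 5.07e-12). The control mean was 132 CPM, 0.46 below Stober50 on the log2 scale (adjusted p = 3.52e-06). Slc40a1, the iron exporter ferroportin, was at 4.93, 4.17 and 4.0 CPM against 7.87, 7.05 and 11.5 CPM, a log2 change of 1.02 ± 0.15 (adjusted p = 6.43e-06). Slc11a2, an iron importer, rose by 0.59, the transferrin receptor Tfrc by 0.40 and the ferritin heavy chain Fth1 by 0.36, and Hfe, a regulator of iron uptake, fell by 0.45. The call of Tfrc was lost in 6 alternatives, among them the omission of Stober50 replicate 2 or 3 or MSN-PEG500 replicate 1 or 3 (adjusted p = 0.0511 to 0.17). Of 18 metallothionein and zinc transport genes 6 rose and 0 fell. Mt2, a metal-binding protein, was at 37.2, 35 and 40.7 CPM against 60, 58.9 and 62.1 CPM, a log2 change of 0.68 ± 0.08 (adjusted p = 5.66e-06), and Mt1 rose by 0.30 and the zinc importer Slc39a8 by 0.96.
Of 28 NRF2 and glutathione genes 6 rose and 8 fell. Slc7a11, the cystine importer, was at 63.0, 54.0 and 64.6 CPM against 121, 111 and 132 CPM, a log2 change of 1.00 ± 0.11 (adjusted p = 2.57e-05). Nqo1 at 0.00 (adjusted p = 0.997) and Gclm at 0.06 (adjusted p = 0.37), both standard NRF2 targets, did not pass the test, and Gclc fell by 0.27.

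ER chaperones and unfolded protein response genes were higher in 22 of 24 members, lower in 1, and 1 did not pass the test, with a median log2 change of 0.28. Hspa5, the chaperone BiP, was at 2912, 3018 and 3146 CPM in Stober50 and at 3953, 3922 and 4140 CPM in MSN-PEG500, a log2 change of 0.40 ± 0.04 (adjusted p = 8.18e-09). The groups did not overlap, and the control mean of Hspa5, 2926 CPM, lay among the Stober50 libraries. Ddit3, the stress-induced factor CHOP, rose by 0.50, Dnajb9 by 0.49, Edem1, which helps discard misfolded glycoproteins, by 0.46, Creld2 by 0.43, and Pdia4, a disulfide isomerase, by 0.37. Atf6, a sensor of the response, fell by 0.17 and Xbp1 at −0.07 (adjusted p = 0.151) did not pass the test. Against control 19 members rose in MSN-PEG500 and 4 in Stober50.

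Interferon response genes were lower in MSN-PEG500. Of 37 members 0 rose, 25 fell and 12 did not pass the test, with a median log2 change of −0.39. Ifit1, whose promoter is printed above, was at 4.81, 5.92 and 6.37 CPM in Stober50 and at 3.3, 2.66 and 2.77 CPM in MSN-PEG500, a log2 change of −0.96 ± 0.15 (adjusted p = 1.66e-05). Isg15, chosen after its values were seen, was at 8.22, 11.2 and 9.94 CPM against 6.24, 5.49 and 5.33 CPM, a log2 change of −0.78 ± 0.15 (adjusted p = 0.000267). Oasl1, an inhibitor of Irf7 translation, was at 45.3, 55.7 and 52.5 CPM against 34.5, 34.1 and 30.2 CPM, a log2 change of −0.64 ± 0.07 (adjusted p = 1.64e-07). In these 3 genes the groups did not overlap, and Stober50 replicate 1 was the lowest of its group. The immunoproteasome subunit Psmb9 fell by 0.37, Ifi35 by 0.32 and Irf9, part of the interferon-activated factor ISGF3, by 0.29. Psmb9 overlaps Tap1, itself interferon-responsive, on the opposite strand at 1.06 times its level.
Against control 24 members fell in MSN-PEG500 (16.9% of all genes fell), and in Stober50 1 rose and 0 fell. The mean log2 level of the list relative to control was −0.11, 0.15 and 0.16 in the Stober50 libraries and −0.33, −0.32 and −0.38 in MSN-PEG500. The Stober500 libraries spread as widely, at −0.18, −0.21 and 0.09. Without Stober50 replicate 1, 30 members fell, and without any other library of the 2 groups 22 to 25.

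Inflammatory mediators did not move in a single direction. Of 27 cytokines and chemokines 11 rose and 5 fell, and only 7 rose without Stober50 replicate 1 and likewise without replicate 2. Il1rn, the antagonist of the interleukin-1 receptor, was at 80.9, 78.6 and 98.5 CPM in Stober50 and at 228, 205 and 232 CPM in MSN-PEG500, a log2 change of 1.37 ± 0.08 (adjusted p = 6.92e-09). Csf1, the macrophage growth factor, was at 2.89, 1.91 and 1.67 CPM against 5.07, 5.77 and 6.0 CPM, a log2 change of 1.38 ± 0.19 (adjusted p = 3.98e-06). Both genes separated the groups.
Among those that fell, Cxcl14, a homeostatic chemokine, was at 478, 483 and 488 CPM against 271, 247 and 213 CPM, a log2 change of −0.99 ± 0.06 (adjusted p = 5.5e-12). Il10, an anti-inflammatory cytokine, was at 6.86, 6.66 and 7.79 CPM against 3.17, 3.7 and 3.18 CPM, a log2 change of −1.09 ± 0.16 (adjusted p = 3.85e-06). The interferon-induced chemokine Cxcl10 was at 7.42, 10.4 and 10.2 CPM against 4.39, 4.91 and 3.71 CPM, a log2 change of −1.12 ± 0.17 (adjusted p = 2.44e-05). None of these groups overlapped. Cxcl16 fell by 0.52.
Tnf, an early inflammatory cytokine, was at 73.7, 80.1 and 115 CPM in Stober50 and at 151, 135 and 105 CPM in MSN-PEG500. The groups overlapped, since Stober50 replicate 3 exceeded MSN-PEG500 replicate 3, and the log2 change was 0.54 ± 0.18 (adjusted p = 0.0436), which lost the threshold in 8 alternatives, among them upper quartile scaling and each omission of Stober50 replicate 1 or 2 or MSN-PEG500 replicate 1 or 2 (adjusted p = 0.0512 to 0.371 over the 8). Cxcl2, a neutrophil chemokine, was at 125, 129 and 195 CPM against 286, 276 and 226 CPM, a log2 change of 0.81 ± 0.23 (adjusted p = 0.0189) that lost the threshold in 5 alternatives (0.0588 to 0.196), including those without Stober50 replicate 1, without Stober50 replicate 2 and without MSN-PEG500 replicate 1. Il1b was at 13.6, 14.3 and 18.5 CPM against 10.3, 12.9 and 8.2 CPM and did not pass the test (−0.58 ± 0.22, adjusted p = 0.0703), though it did without MSN-PEG500 replicate 2 and in the fit of the 6 libraries alone (adjusted p = 0.012 and 0.0445). Ccl2, the monocyte chemoattractant, differed by −0.04 ± 0.16 (adjusted p = 0.889). Ccl3 and Ccl4, chosen after their values were seen, rose by 0.80 and 0.87.
Of 24 genes of NF-kB and its feedback 6 rose and 2 fell, together 33.3% beside 33.1% of all genes. Acod1, which makes itaconate, was at 85.1, 78.3 and 108 CPM in Stober50 and at 182, 178 and 165 CPM in MSN-PEG500, a log2 change of 0.95 ± 0.11 (adjusted p = 2.45e-05). Tnfaip3, the feedback inhibitor A20, was at 25.9, 29.4 and 37.5 CPM against 56.2, 56.9 and 45.2 CPM, a log2 change of 0.77 ± 0.13 (adjusted p = 0.000599). The call of Tnfaip3 was lost in the edgeR fit of the 6 libraries with a replicate block (adjusted p = 0.0964). Nfkbia at −0.11 (adjusted p = 0.525) did not pass the test.

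Mitotic genes were slightly lower in MSN-PEG500. Of 34 members 0 rose, 23 fell and 11 did not pass the test, with a median log2 change of −0.15. Cdc20, the activator of the anaphase-promoting complex, was at 143, 156 and 145 CPM in Stober50 and at 116, 119 and 109 CPM in MSN-PEG500, a log2 change of −0.37 ± 0.04 (adjusted p = 1.81e-07), and it overlaps Elovl1 at 1.26 times its level. Ccnb2, a mitotic cyclin, was at 140, 146 and 129 CPM against 113, 117 and 107 CPM, a log2 change of −0.30 ± 0.04 (adjusted p = 3.95e-06). Kif20a, Bub1b and Plk1 fell by 0.33, 0.29 and 0.28. By library the mean of the list relative to control was −0.03, 0.02 and −0.04 in Stober50 and −0.19, −0.18 and −0.16 in MSN-PEG500. Of 33 DNA replication genes 2 rose and 12 fell. In bulk RNA a smaller share of dividing cells and less RNA of a gene in each cell cannot be told apart. The motif TTTGAA, known as the cell cycle homology region, stood in 10 of 29 mitotic promoters (34.5%) and in 12.8% of all.
The BCL2 family split, 5 of 16 members rising and 4 falling. Beside Bmf, the BH3-only genes Bad, Bbc3 and Bcl2l11 fell by 0.31, 0.23 and 0.17. The antiapoptotic Bcl2l1 was at 59.3, 58.9 and 67.7 CPM in Stober50 and at 102, 106 and 113 CPM in MSN-PEG500, a log2 change of 0.78 ± 0.06 (adjusted p = 6.73e-10). Mcl1 and Bcl2 rose by 0.29 and 0.38, as did Bcl2a1b by 0.72, whose near-identical relatives could share its reads. Bid, which promotes apoptosis, also rose, by 0.11. The smallest of these changes depended on the libraries: the calls were lost for Bbc3 without Stober50 replicate 2 or 3 or MSN-PEG500 replicate 3 (adjusted p = 0.0857 to 0.243), for Bcl2l11 in 4 alternatives, among them without Stober50 replicate 3 or MSN-PEG500 replicate 3 (0.057 to 0.159), and for Bid in 7, among them without Stober50 replicate 1 or 3 or MSN-PEG500 replicate 1 or 2 (0.0667 to 0.245). Of 22 p53 target genes 4 rose (18.2%, near the 17.4% of all genes), 2 fell (9.09%, beside 15.7%) and 16 did not pass the test. Plk2, a polo-like kinase in that list, was at 56.9, 52.3 and 61.1 CPM against 199, 208 and 197 CPM, a log2 change of 1.83 ± 0.13 (adjusted p = 8.18e-07). Its control mean was 64.3 CPM. The count of 4 became 2 without Stober50 replicate 1 and 1 without Stober50 replicate 2.

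Genes of macrophage identity moved both ways. Of 12 macrophage markers 3 rose and 5 fell. Csf1r, the receptor for CSF1, was at 3320, 3257 and 3265 CPM in Stober50 and at 2688, 2713 and 2478 CPM in MSN-PEG500, a log2 change of −0.32 ± 0.04 (adjusted p = 2.83e-07). The Fc receptor Fcgr1 fell by 0.44, the lineage factor Spi1 by 0.24 and lysozyme (Lyz2) by 0.21, while the galectin Lgals3 rose by 0.47 and the endosomal glycoprotein Cd68 by 0.22. Of 28 macrophage transcription factors 10 rose and 11 fell, with log2 changes from −0.91 to 0.78. Bhlhe40 was at 57.5, 63.4 and 66.3 CPM against 110, 110 and 102 CPM, a log2 change of 0.78 ± 0.06 (adjusted p = 1.91e-11), and its relative Bhlhe41 rose by 0.77.
Of 17 genes of osteoclast differentiation 8 rose and 4 fell. The effectors Ctsk, Atp6v0d2 and the chloride exchanger Clcn7 (0.70) rose. Itgb3, the beta subunit of the vitronectin receptor, was at 0.0802, 0.117 and 0.0728 CPM in Stober50, where no library held more than 3 counts, and at 0.633, 0.577 and 0.992 CPM in MSN-PEG500 (adjusted p = 4.67e-05). Tnfrsf11a, the receptor RANK, fell by 0.61 and Nfatc1, the factor that drives this program, by 0.50. Of 16 chemoattractant receptors 5 rose and 6 fell, and only 3 fell without Stober50 replicate 1. Their log2 changes ran from −1.95 to 0.59, with a median of −0.21. Cxcr4 was at 74.1, 78.6 and 68.1 CPM against 94.2, 91.2 and 85.5 CPM, a log2 change of 0.30 ± 0.07 (adjusted p = 0.00185), over a control mean of 40.7 CPM. The urokinase gene Plau, among 26 growth factor, matrix and TGF-beta genes of which 11 rose and 7 fell, was at 506, 478 and 456 CPM against 905, 905 and 931 CPM, a log2 change of 0.93 ± 0.09 (adjusted p = 2.42e-06). The 11 became 6 without Stober50 replicate 2 and 7 without MSN-PEG500 replicate 1.
Malat1, a nuclear noncoding RNA, was at 267, 284 and 335 CPM in Stober50 and at 383, 335 and 411 CPM in MSN-PEG500. The groups met at 335 CPM, the log2 change was 0.35 ± 0.10 (adjusted p = 0.0139), and the threshold was lost without Stober50 replicate 2 (0.055) or MSN-PEG500 replicate 3 (0.0812). Both particles were below the control mean of 520 CPM.

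A comparison of mesoporous with nonporous silica that shares no library is that of MSN500 with Stober500, both of 500 nm. Their dosage labels differ as well, 111.8 against 16.8 µg/ml, and the parts of porosity and dosage cannot be told apart. MSN500 against Stober500 called 5045 genes (39.4%), 19.9% of all genes being higher and 19.5% lower in MSN500. Across the 12798 genes the log2 changes of the 2 comparisons correlated with Pearson's r = 0.735 and Spearman's rho = 0.585, a description over genes that are not independent and that share a scaling and a fit. Genes called in both with the same sign numbered 2775, which is 65.6% of the calls here and 55% of the calls there, and 58 had opposite signs. Cyp51 changed by 1.00 there and 1.18 here, Fabp4 by 4.17 and 4.37, Gpnmb by 1.60 and 1.28, Ctsd by 0.99 and 0.73, Tgfbi by −3.31 and −2.53, and Nt5e by −2.37 and −1.78. Of the lists, cholesterol genes rose in 23 of 26 and V-ATPase genes in 17 of 19 members there.
The difference between the 2 changes was itself tested, and 1157 genes (9.04%) passed, 531 with the higher (4.15%) and 626 with the lower (4.89%) change in MSN-PEG500 over Stober50. Of interferon genes 13 of 37 fell and 2 rose in MSN500 over Stober500, and 4 members had a lower change here while 0 had a higher. Of NF-kB genes 16 of 24 rose there and 6 here, and 8 members had a lower change here. Of 37 nuclear genes of the respiratory chain 5 rose there and 0 fell, while here 1 rose and 11 fell, and 10 members had a lower change here. That count of 11 was 17 with upper quartile scaling, 7 without Stober50 replicate 1 and with the length trend removed, and 5 without Stober50 replicate 2 or MSN-PEG500 replicate 3.
Between the nearest groups of each side, 1027 genes (8.02%) differed between MSN-PEG500 and MSN500 and 287 (2.24%) between Stober500 and Stober50. The first count ranged from 420 without MSN500 replicate 1 to 1032 without MSN-PEG500 replicate 2, and the second from 144 without Stober500 replicate 2 to 302 without Stober500 replicate 3. Against control MSN-PEG500 called 4397 genes (34.4%) and Stober50 969 (7.57%). The Stober50 count fell to 412 without Stober50 replicate 2 and to 655 with the length trend removed.

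**Figure D5:**
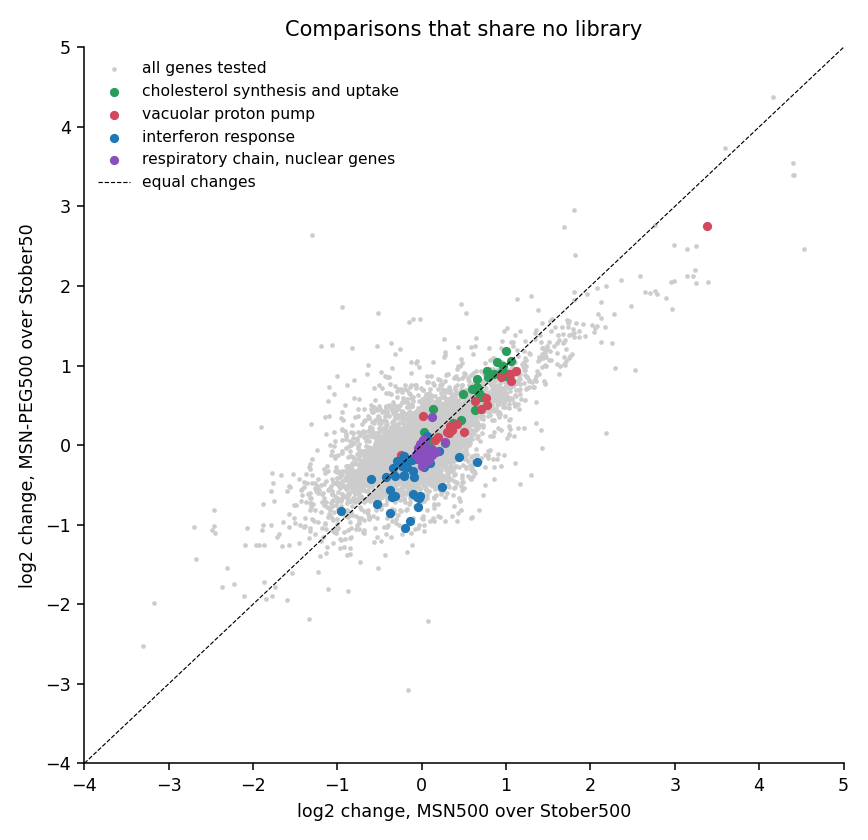
Log2 change in MSN500 over Stober500 (horizontal) and in MSN-PEG500 over Stober50 (vertical) of the 12798 genes tested (grey), with 4 lists in colour; the dashed line marks equal changes. Cholesterol and proton pump genes lie in the upper right, and interferon genes lie below the line in most cases, with medians of −0.14 and −0.39.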

How the data were processed

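RNA of RAW264.7 cells was sequenced as single reads on a HiSeq 2000 from TruSeq libraries, per the labels' protocols. The submitters' processing notes name the aligner Novoalign 2.08.03, the packages DESeq2 and limma 3.28.21, and GRCm38, also called mm10, as the build. The deposited counts are whole numbers of alignments per gene, not normalized, and each of 13342 genes reached 10 counts or more in some library. The sources used here do not state whether strand entered the counting, and overlapping genes are uncertain. The deposited FPKM values scale the authors' counts by exonic length and were not tested. The log2 ratios deposited by the authors were made with DESeq2, and their deposited score is -10 log10 of an adjusted p, per the column descriptions. The samples' descriptions name their count columns, which gave the match, and 0 columns were of other samples.

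With edgeR 4.0.16 (R 4.3.3), filterByExpr at a minimum count of 10 left 12798 genes for the test. TMM factors lay between 0.974 and 1.02. The quasi-likelihood fit used the means of 5 groups and all 15 libraries (common biological coefficient of variation 0.0418), and genes were called at a Benjamini-Hochberg adjusted p under 0.05, two-sided. Changes are log2, and log2 CPM used a prior count of 2. The SE after ± is the absolute log2 change divided by the square root of the test's F. It is approximate and can be too small for genes with few counts, such as Fabp4 and Rragd in Stober50. The procedure was also run on simulated counts drawn with the fitted spread between libraries. Such counts hold no length trend and cannot tell technical from separate replicates. No conclusion is drawn from them. At these library totals, 3 counts, the limit that a count of 0 allows, equal 0.11 to 0.17 CPM, a limit that covers counting error only. The variance between replicates of a group was 2.19 to 6.81 times that of sampling noise (chi-square per degree of freedom), so none was treated as a duplicate. Coordinates are GRCm38, since 99.96% of 13173 genes with a GENCODE M21 identifier overlapped that annotation. Promoters come from a RefSeq table of GRCm38.p6.

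The members of the comparison, the gene lists and the genes followed throughout were chosen with earlier results of these data known. Genes named are the 12 with the largest change in each direction with at least 5 CPM in the higher group and no overlap, up to 5 called members of each list with the smallest p, any member of a list under 30 genes given member by member, the 5 largest in each direction of the difference of differences, and 23 genes followed throughout; others are marked as chosen after their values were seen, and a few genes that the rule selects are not reported here. Alternatives were DESeq2 1.42.0, upper quartile factors, limma-voom with limma 3.58.1, no count filter, at least 5 CPM in 3 libraries, a replicate block, the omission of each library, the 6 libraries alone, a test against a 1.5-fold change and, added after seeing the data, removal of a loess trend of the log2 change on exonic length (span 0.5).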

Additional observations from a re-analysis of the deposited data

Results flagged for a closer look

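The change in MSN-PEG500 over Stober50 was tested against the change in MSN500 over Stober500, which uses other libraries, and the difference passed the threshold in 1157 of 12798 genes (edgeR adjusted p under 0.05). The genes given here had the largest such differences, as the first log2 change minus the second. Both changes are of the same sign in most of them, so the difference is of size.

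Bmf, the BH3-only gene, fell by 1.43 in the first and by 2.68 in the second comparison, a difference of 1.24 (adjusted p = 0.00292). Ranbp3l fell by 1.04 and by 2.07, a difference of 1.03 (adjusted p = 9.46e-05), and Olr1, a lectin-like scavenger receptor, by 0.58 and by 1.60, a difference of 1.02 (adjusted p = 0.000952). Cytip fell by 0.38 and by 1.30, a difference of 0.92 (adjusted p = 2.39e-09), and Scel by 0.53 and by 1.40, a difference of 0.88 (adjusted p = 0.000919). In Cytip the Stober500 mean of 114 CPM stood above the control mean of 97.5 CPM and the Stober50 libraries, at 81.6, 78.7 and 80.8 CPM, below it.

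In the other direction, 4933430I17Rik rose by 2.12 and by 3.15, a difference of -1.03 (adjusted p = 0.00303), and Hvcn1 by 1.90 and by 2.79, a difference of -0.90 (adjusted p = 0.0166), which lost the threshold without Stober500 replicate 2 (adjusted p = 0.0623). Bri3 was at 22.8, 25.0 and 25.0 CPM in Stober50 and at 27.7, 25.9 and 24.7 CPM in MSN-PEG500, a change of 0.11 (adjusted p = 0.247), and rose by 1.09 in the second comparison, a difference of -0.98 (adjusted p = 1.61e-06). Cebpb, a factor of inflammatory gene expression, was at 131, 130 and 129 CPM in Stober50 and at 74.5, 71.4 and 61.3 CPM in MSN-PEG500, and its change was -0.91 here (adjusted p = 0.000137) and 0.13 there (adjusted p = 0.43), a difference of -1.05 (adjusted p = 0.00451). Its control mean was 83.0 CPM, and Stober50 lay 0.65 above it on the log2 scale (adjusted p = 0.00795). Cebpb overlaps Tmem189 on the opposite strand, at 2.01 times its level.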

How the results depend on the processing

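No called gene that the text names changed sign in any alternative, but the balance of calls did turn. The 4232 genes called became 3850 with DESeq2, 4371 with upper quartile factors, 4252 with limma-voom, 4230 with no filter, 4009 with at least 5 CPM in 3 libraries, 3964 with the 6 libraries alone, 4161 with the length trend removed, and 217 (177 higher, 40 lower) in the test against 1.5-fold; with upper quartile factors 1896 were higher and 2475 lower, with the length trend removed 1836 and 2325. Between MSN-PEG500 and MSN500 the split of 525 higher and 502 lower became 486 and 542 with upper quartile factors. The log2 change correlated with exonic length at Spearman's rho = 0.187. The trend was stronger in Stober50 against control (rho = -0.263) and in MSN-PEG500 against MSN500 (rho = 0.267). The count of at least 2-fold changes, 255, became 100 at 5 CPM in 3 libraries. With the length trend removed, 637 genes differed between MSN-PEG500 and MSN500, 655 between Stober50 and control, and 861 in the difference of differences. Leaving out 1 library each gave 3236 to 4100 for the main count, 228 to 269 at 2-fold, 420 to 1032 for MSN-PEG500 against MSN500, 4291 to 4962 for MSN500 against Stober500, 144 to 302 for Stober500 against Stober50, 3723 to 4246 for MSN-PEG500 and 412 to 892 for Stober50 against control, and 623 to 1313 for the difference of differences. Deviations of same-numbered MSN-PEG500 and Stober50 libraries correlated at -0.017, 0.093 and 0.029, so the numbers were not taken as pairs; with the replicate block 4386 genes were called (2301 higher, 2085 lower), and 4143 with the block on the 6 libraries, where Tnfaip3 (adjusted p = 0.0964) and Nfkb2 (0.0507) no longer passed. The cause of these shifts was not tested. List counts stayed within 1.5 times in 447 cases and moved further in 49, mostly in the 1.5-fold test, where 12 cholesterol genes, 5 of the proton pump and 3 lysosomal genes stayed higher and 0 interferon or mitotic genes lower. Of the values of named genes, 4006 kept their side of the threshold, 265 lost it and 6 gained it, Insig2 (adjusted p = 0.0452) with the replicate block. Most of the 265 losses came in the 1.5-fold test, which asks for a larger change. Levels under 0.17 CPM cannot be told from 0.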

Other observations

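The authors' deposited table of this comparison lists 3846 genes past a score of 13 and 82 past a score of 20 with at least a 2-fold change. A score of 20 is a stricter limit than the adjusted p of 0.05 used above. The 2-fold limit of the 82 was also set on the authors' own log2 ratios. For both reasons the 82 and the 255 are not like counts. The authors' log2 ratios were 2.88 for Fabp4, 1.25 for Gpnmb, 1.14 for Cyp51 and -2.06 for Tgfbi. Each had the same sign as the value above and was smaller in size.

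The authors' deposited table also gives, for each gene, the exon whose share of reads differed most between the particles, from a test in which replicates were not modelled. It lists 313 of 13341 genes past a score of 13, none with an absolute exon log2 ratio under 1.0. The exon was lower in MSN-PEG500 in 296 of them and higher in 17. In 145 of the 313 the exon held the gene's 5′ end, all 145 of them lower in MSN-PEG500. In 1 it held the 3′ end without the 5′ end. The share of 5′ exons among all exons examined is not known here. RNA integrity numbers are given only as 8 to 10 for all libraries, and the cause of this one-sided pattern was not tested. In the authors' deposited table the exon log2 ratio was -2.26 for Lamp1, -1.27 for Rac1 and -1.99 for Rap1b, while the gene's own log2 ratio was 0.30, -0.13 and 0.07.

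For the lists here the background is again 17.4% of all genes higher and 15.7% lower in MSN-PEG500. Glycolysis and hypoxia genes rose in 6 of 32 members (18.8%, near that background) and fell in 1, with a median of 0.04. ATF4 response and amino acid supply genes rose in 2 of 30 and fell in 10, with a median of -0.10. Of 32 autophagy genes 12 rose and 7 fell, and of 26 galectin and ESCRT membrane repair genes 7 rose and 0 fell. Scavenger and phagocytic receptors rose in 6 of 28 and fell in 9. Of 32 actin and motility genes 6 rose and 11 fell, and 5 fell without MSN-PEG500 replicate 3. Of 17 cytosolic heat shock genes 5 rose and 3 fell, and 2 rose without Stober50 replicate 1, Stober50 replicate 2 or MSN-PEG500 replicate 3.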
